A study of Bos taurus with 18 samples.

Results

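The genes described here are the 200 whose level varied least between 18 cattle leukocyte samples, out of 3254 genes that were abundant enough to be ranked. They were picked from measured values. Only genes listed under an Ensembl identifier whose level in counts-per-million (CPM) averaged 50 or more over the 18 libraries were considered. They were ordered by the standard deviation (SD) of log2(CPM + 0.5) over all libraries, and the 200 lowest were kept. The rule also named 6 identifiers to be set aside, and 0 of them ranked among those 200. The table holds 30162 features in all, 27607 of them with an Ensembl identifier, and 14446 features (13439 with an identifier) passed a filter on low counts. All 200 genes passed that filter.

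The samples came from 6 Red Angus, 6 Droughtmaster and 6 F1 (Red Angus x Droughtmaster) animals. Red Angus is a Bos taurus beef breed, and Droughtmaster is a composite breed with Bos indicus ancestry kept in hot climates. Every animal was female and carried the heat stress label, so no unstressed group enters any comparison, and the labels state no age, parentage, pairing or collection batch. The white cell layer of centrifuged tail vein blood was sequenced as mRNA. Each library is a separately named animal.

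Leukocytes are a mixture of neutrophils, lymphocytes, monocytes and other cells, and the mixture differs from animal to animal. In such bulk samples a change in the share of one cell type and a change in RNA per cell cannot be told apart. Genes whose transcripts hold a near-constant share of the RNA pool are the usual candidates for reference genes, the internal standards against which other transcripts are measured. RNA sequencing measures shares of a pool, so a gene is stable only relative to the way libraries are scaled to each other. The files pair no Ensembl identifier with a gene symbol, and 0 identifiers matched the RefSeq table (assembly ARS-UCD2.0). The genes are therefore given by identifier, their functions, sequences and positions were not analysed here, and the leukocyte label was not checked against marker genes. Reads shared with near-identical gene copies or with antisense genes could not be assessed either.

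Libraries held 16459300 to 24117600 counts for Red Angus, 14778400 to 21889700 for the F1 and 11639000 to 18551900 for Droughtmaster. Droughtmaster replicate 3 stood apart, since 1 feature took 44.6% of its counts, and its TMM factor (the trimmed mean of M-values scaling that corrects for such composition) was 0.424. The factors of the other 17 libraries lay between 0.734 and 1.46.

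The 200 genes spanned SDs from 0.136 to 0.291 on the log2 scale, with a median of 0.255. The median over all 3254 ranked genes was 0.570, and the highest was 3.90. In terms of fold, the library with the highest CPM of a gene exceeded the library with the lowest by a median of 1.87 times among the 200 (range 1.37 to 2.52), against a median of 4.06 times over all ranked genes. For 149 of the 200 genes (74.5%) all 18 libraries lay within 2-fold of each other, and for 5 genes within 1.5-fold. Outside the 200, 18 of the other 3054 genes (0.589%) kept within 2-fold and 0 within 1.5-fold. These figures describe the choice, which was made on the same values, and no test was applied to them.

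**Figure D1:**
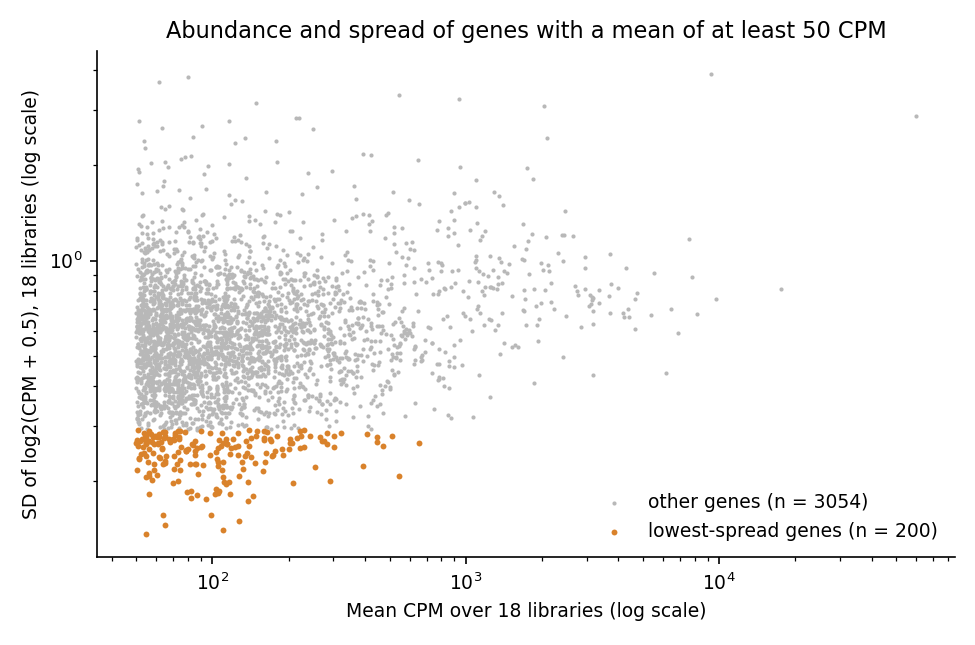
Mean CPM over 18 libraries (x axis, log scale) and SD of log2(CPM + 0.5) over the same libraries (y axis, log scale) for 3254 genes, with 1 point per gene. The 200 lowest-spread genes (orange) lie at or under an SD of 0.291 and reach no further than 656 CPM, while the other 3054 genes (grey) reach 59734 CPM.

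The limit of the list was not a break in the distribution. The last genes inside it were ENSBTAG00000015016 (SD 0.291, mean 229 CPM) and ENSBTAG00000043989 (SD 0.291, mean 50.9 CPM). The first genes outside were ENSBTAG00000008523 (SD 0.291, mean 87.1 CPM) and ENSBTAG00000000215 (SD 0.292, mean 423 CPM). The next 200 genes in the order had a median SD of 0.326 and a highest SD of 0.347.

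The least variable gene was ENSBTAG00000018310, with an SD of 0.136. In Red Angus its lowest, median and highest library measured 46.7, 53.3 and 60.6 CPM, in the F1 49.9, 53.2 and 60.8 CPM, and in Droughtmaster 48.6, 56.4 and 69.5 CPM. The breeds overlapped throughout, and the single highest value belonged to Droughtmaster replicate 6. The means of Red Angus, F1 and Droughtmaster were 53.1 ± 4.82, 54.3 ± 3.90 and 57.2 ± 7.06 CPM (SD, n = 6 each). Its raw counts ran from 381 in Droughtmaster replicate 3 to 1603 in Droughtmaster replicate 6. Counting alone at these depths would give an SD of 0.0475.

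ENSBTAG00000019290 came next in order, with an SD of 0.141, and had the narrowest range of the 200, with its highest library 1.37 times its lowest. It measured 99.1, 118 and 130 CPM in Red Angus (lowest, median and highest library), 97.9, 108 and 123 CPM in the F1, and 95.6, 104 and 131 CPM in Droughtmaster. The groups overlapped almost completely. The means were 115 ± 11.2, 108 ± 9.48 and 107 ± 12.4 CPM (SD, n = 6 each). The highest Droughtmaster value came from replicate 2, while the other 5 Droughtmaster libraries lay between 95.6 and 107 CPM. The other genes whose 18 libraries kept within 1.5-fold were ENSBTAG00000006378 (mean 65.0 CPM), ENSBTAG00000018112 (98.7 CPM) and ENSBTAG00000010002 (105 CPM), named after their values were seen.

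The genes of the list were of moderate abundance. CPM is not divided by transcript length, so an order by CPM is an order of read shares. The 200 genes had means from 50.1 to 656 CPM with a median of 90.5 CPM, against a median of 104 CPM over all ranked genes. Divided at the quartiles of abundance, the ranked genes contributed 62, 47 and 61 members from the 3 lower quartiles (7.62%, 5.78% and 7.50% of each) and 30 (3.69%) from the highest quartile, which started at 193 CPM. Of the 288 genes over 500 CPM, 3 were members, and of the 142 over 1000 CPM, 0 were. The most abundant member, ENSBTAG00000013363, had 211 more abundant genes above it.

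ENSBTAG00000013363 had a mean of 656 CPM and an SD of 0.264. Its lowest, median and highest libraries were 623, 681 and 857 CPM in Red Angus, 495.1, 714 and 800 CPM in the F1, and 480, 517 and 726 CPM in Droughtmaster. The Droughtmaster median lay below every Red Angus library, but the groups overlapped. Droughtmaster replicates 3 and 5, at 726 and 682 CPM, lay above the Red Angus median. ENSBTAG00000019967, the second most abundant at 544 CPM, had the smaller SD of 0.207. Red Angus, F1 and Droughtmaster measured 580 ± 83.6, 537 ± 82.1 and 513 ± 74.2 CPM (SD, n = 6 each), so the breed means lay closer together than the animals within a breed.

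The smallest count of any of the 200 genes in any library was 244, the median count was 1670 and the largest was 18863. Poisson counting at each library's depth would give a median SD of 0.0370 and at most 0.0497, which is a median of 2.39% of the variance observed in the 200 genes. Counting error covers sampling of reads only. Over all ranked genes the share was 0.345%. The SDs are those the choice was made on, and each animal gave 1 library, so differences between animals and between library preparations cannot be told apart in the remainder.

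The choice of a low SD over all 18 libraries also keeps the SD within each breed low, so the following values are a description of the list. The median SD was 0.249 over the Red Angus animals, 0.209 over the F1 and 0.224 over the Droughtmaster animals (n = 6 each). Over all ranked genes the medians were 0.624, 0.458 and 0.504. Red Angus had the widest spread of the 3 breeds in 2113 of the 3254 ranked genes, and in 95 of the 200. Droughtmaster was widest in 843 of the ranked genes and in 70 of the 200, and the F1 in 298 and 35. Among the next 200 genes in the order of spread, Red Angus was widest in 100, Droughtmaster in 74 and the F1 in 26. Differences between breed means took a median of 15.7% of each gene's variance in the 200 genes, 16.4% in the next 200 and 13.0% over all ranked genes. Such a share lies above 0 even where breeds do not differ, since means of 6 animals vary, and it was not corrected for this.

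Whether low spread in some animals goes with low spread in others was read in libraries that the choice had not used. The rule was applied to the 12 libraries of 2 breeds, and the SD of the chosen 200 genes was then taken over the 6 libraries of the third. Genes chosen without Red Angus had a median SD of 0.282 in Red Angus, against 0.647 for the other ranked genes. Genes chosen without the F1 had 0.228 in the F1, against 0.472 for the others, and genes chosen without Droughtmaster had 0.279 in Droughtmaster, against 0.511. In each case most chosen genes lay below the median of the others in the unused breed: 99% when Red Angus was unused, 99% when the F1 was and 91.5% when Droughtmaster was. The scaling factors came from all 18 libraries, so the choice was blind to the SD in the third breed but not to its scaling.

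The level in the unused breed was read in the same way. For genes chosen without Droughtmaster, the Droughtmaster mean lay a median of 0.237 (log2, either direction) from the mean of the other 12 libraries, against 0.303 for the other genes. The distance was 0.147 against 0.289 for genes chosen without Red Angus, and 0.113 against 0.148 for genes chosen without the F1. The differences between these breeds were not tested. Of the genes chosen in 12 libraries, 148 were among the 200 described here when Red Angus was left out, 165 when the F1 was, and 116 when Droughtmaster was.

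**Figure D2:**
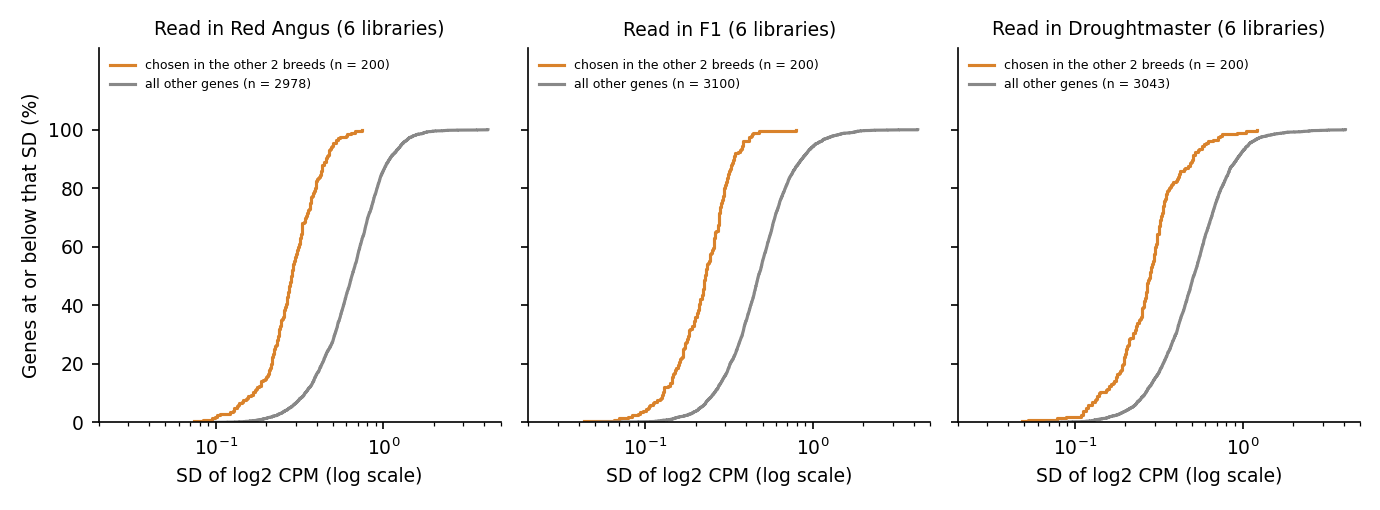
Cumulative share of genes (y axis, %) at or below a given SD of log2 CPM (x axis, log scale) in the 6 libraries of the breed that was not used for the choice. The 200 genes chosen in the other breeds (orange) lie to the left of all other genes ranked in those breeds (grey) in each panel. The medians are 0.282 against 0.647 (Red Angus), 0.228 against 0.472 (F1) and 0.279 against 0.511 (Droughtmaster).

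Single breeds gave overlapping but far from identical lists. Among the 3254 ranked genes, the 200 least variable within Red Angus and the 200 least variable within the F1 shared 87 genes, or 43.5% of each list. Red Angus and Droughtmaster shared 57 (28.5%), and the F1 and Droughtmaster shared 49 (24.5%). A list of 200 is 6.15% of the ranked genes. A set of 33 genes stood in all 3 lists, and 30 of these were among the 200 genes described here. The 200 genes were chosen on the same values, so this last overlap largely follows from the choice. Across the 3254 genes the SDs of Red Angus and the F1 had a Spearman correlation of 0.82, those of Red Angus and Droughtmaster 0.65 and those of the F1 and Droughtmaster 0.61. Genes are not independent replicates, and these values share the scaling, the abundance of each gene and any expression program common to all animals.

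The median deviation of the 200 genes from their own 18-library means was between -0.00567 and 0.177 in the Red Angus libraries, between -0.0376 and 0.0713 in the F1, and between -0.172 and -0.0267 in Droughtmaster (log2). With TMM scaling all 6 Droughtmaster libraries were thus below all 6 Red Angus libraries, by a narrow margin between the nearest (-0.0267 and -0.00567), while the F1 overlapped with both. The order was not examined by library under the other scalings. The median fitted difference between the parents was -0.158 with TMM, -0.152 with DESeq2 size factors and -0.0605 with upper-quartile factors. Genes chosen for a low SD must lie near their own means, so the width of these ranges follows from the choice. Over all genes of at least 50 CPM the same median ran from -0.442 in Droughtmaster replicate 6 to 0.423 in Red Angus replicate 4. In those libraries the 200 genes stood at -0.172 and -0.00567. In Red Angus replicate 5 the ranked genes stood at -0.380 and the 200 genes at 0.00170.

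**Figure D3:**
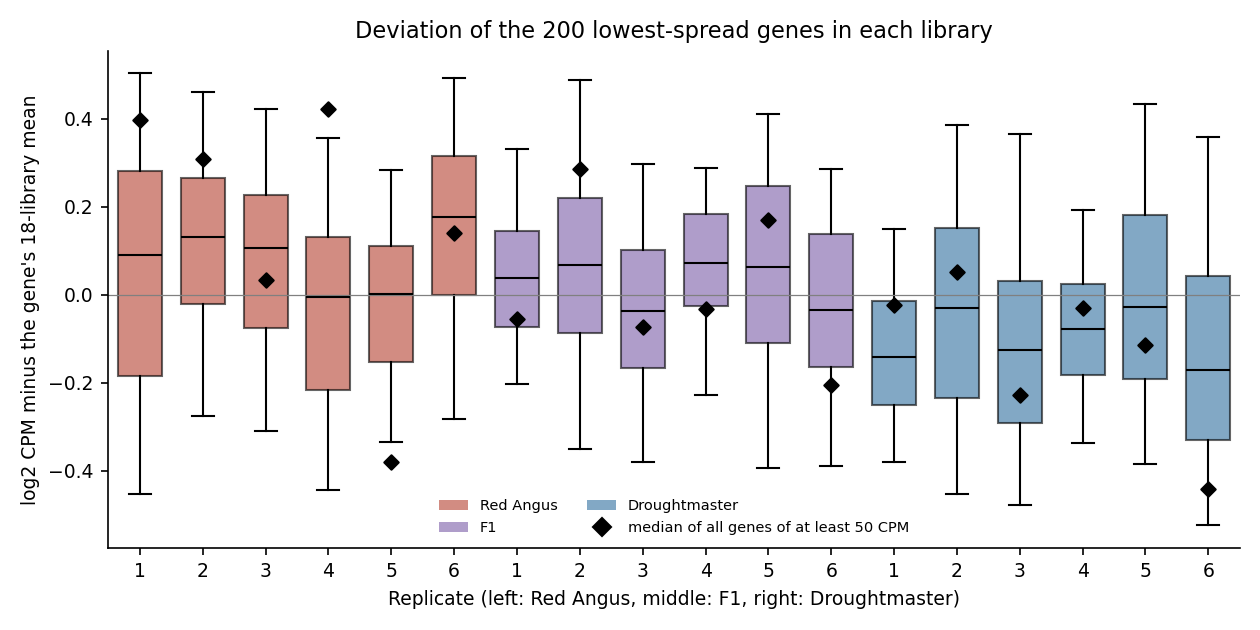
Deviation of log2 CPM from each gene's own 18-library mean (y axis) for the 200 lowest-spread genes, with 1 box per library (line: median; box: quartiles; whiskers: 5th and 95th percentiles) and the median of all genes of at least 50 CPM as a diamond. The diamonds run from -0.442 to 0.423, while the medians of the 200 genes run from -0.172 to 0.177 and are below 0 in all 6 Droughtmaster libraries.

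Among the 200 genes Red Angus most often held the highest library of a gene and Droughtmaster the lowest. The highest of the 18 libraries was a Red Angus library for 105 of the 200 genes, an F1 library for 47 and a Droughtmaster library for 48. The lowest was a Droughtmaster library for 111 genes, a Red Angus library for 51 and an F1 library for 38. Such counts were not made over all ranked genes. The median deviation of the ranked genes averaged 0.154 ± 0.302 in Red Angus, 0.0152 ± 0.180 in F1 and -0.130 ± 0.180 in Droughtmaster libraries (SD, n = 6 each). That is the same order of breeds, so the order is not shown to be particular to the list. Red Angus replicate 6 was the highest library most often, for 31 genes, and Droughtmaster replicate 6 the lowest most often, for 34, followed by Droughtmaster replicate 3 for 27. F1 replicate 4 was the lowest for 0 genes. Pairs of the 200 genes had a median Pearson correlation of 0.12 over the 18 libraries (19900 pairs, which share the libraries and their scaling), and 37.4% of pairs were negatively correlated. The next 200 genes in the order of spread had a median correlation of 0.13. Correlations over 0.5 made up 12.5% of pairs among the 200 genes and 19.6% among the next 200. When each library was shifted so that the median of the 200 genes was equal everywhere, a step chosen after seeing the data, their median SD went from 0.255 to 0.236, and that of the next 200 genes from 0.326 to 0.302.

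As a share of raw counts the 200 genes were less even. With the most abundant feature of each library set aside, they held 2.59% ± 0.591, 2.81% ± 0.369 and 2.60% ± 0.519 of the counts of Red Angus, F1 and Droughtmaster libraries (SD, n = 6 each). Single libraries ranged from 1.80% in Droughtmaster replicate 3 to 3.51% in Red Angus replicate 5. Without that step, Droughtmaster replicate 3 gave the 200 genes 0.998% of its counts. On raw library sizes the same 200 genes had a median SD of 0.476, against 0.255 after TMM scaling.

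The list depended on that scaling. With raw library sizes 51 of the 200 genes were kept, and 31 when Droughtmaster replicate 3 was left out as well. With DESeq2 size factors 178 were kept, and with upper-quartile factors 162. A list of 199 genes chosen on raw library sizes (after the identifiers set aside) had a median SD of 0.399, wider than the 0.251 and 0.247 of the lists chosen with the DESeq2 and upper-quartile factors. Leaving out 1 library kept between 148 genes (without Droughtmaster replicate 3) and 195 (without Droughtmaster replicate 4), and 126 genes were kept in all 18 such lists. A total of 82 genes were kept in all 18 of those lists, with both other scaling factors and with 3 other measures of spread (the coefficient of variation of CPM, the median absolute deviation and the SD within breeds). ENSBTAG00000019290 was 1 of 6 genes kept in all 34 settings tried, although its own SD was 0.394 on raw library sizes. A minimum of 100 CPM was among those settings, and it barred the 106 genes of the list under that mean. ENSBTAG00000018310 had an SD of 0.446 on raw library sizes, and 0.153 and 0.174 with the DESeq2 and upper-quartile factors.

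**Figure D4:**
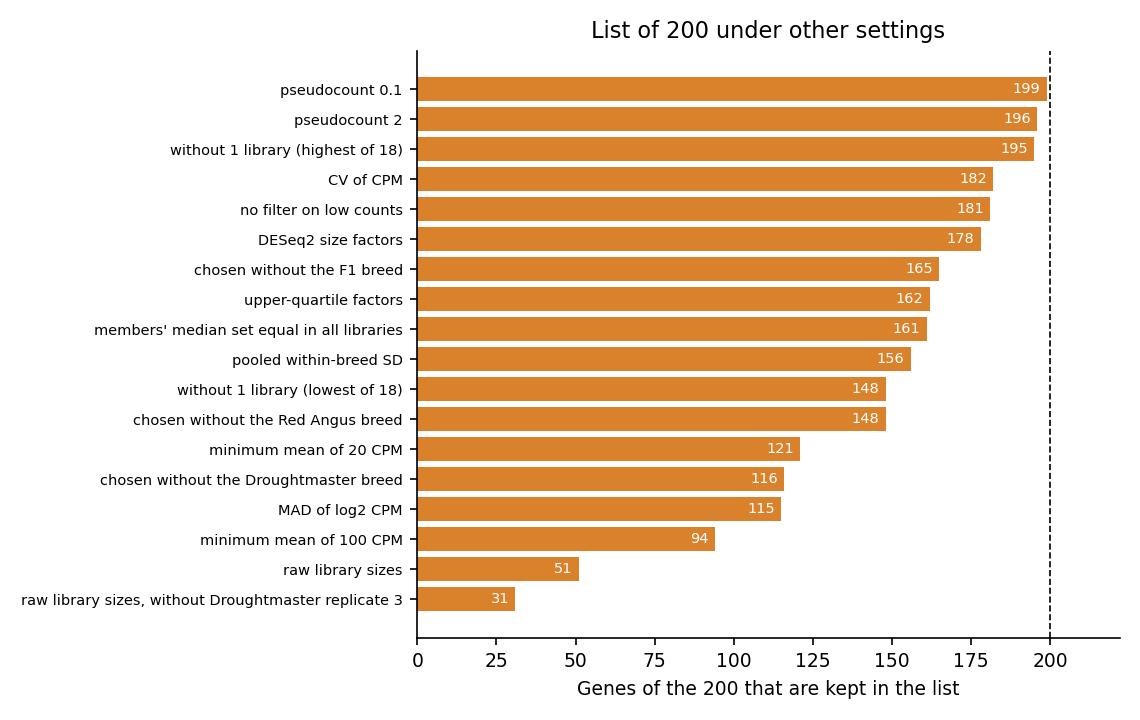
Number of the 200 genes that remained in a list of the 200 least variable (x axis) under each other setting (y axis). The bars run from 31 and 51 genes on raw library sizes to 199 with a pseudocount of 0.1, and leaving out any 1 library keeps 148 to 195. At a minimum of 100 CPM the 106 genes under it could not be ranked, so that bar (94) was fixed in advance.

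The design compares the breeds with each other, and for these genes every such comparison is bound by the choice of low spread over all 18 libraries. The counts and values below are therefore descriptions, and nothing is read from them about the list. By edgeR's quasi-likelihood test, adjusted by Benjamini-Hochberg over all 14446 features at a threshold of 0.05, 0 of the 200 genes differed between Droughtmaster and Red Angus (2.60% of all features did). The count was also 0 for F1 against Droughtmaster (background 1.18%) and for F1 against Red Angus (background 0%). At an unadjusted p under 0.05 in the same edgeR fit there were 16 of the 200 genes for Droughtmaster against Red Angus (background 19.8%), 1 of them higher in Droughtmaster (background 9.33%) and 15 lower (background 10.4%). For F1 against Droughtmaster there were 5 (background 14.1%), of which 5 were higher in the F1 (background 5.23%) and 0 lower (background 8.90%). For F1 against Red Angus there were 0 (background 3.23%), with 0 higher (background 1.18%) and 0 lower (background 2.05%). DESeq2's Wald test with Benjamini-Hochberg adjustment called 2, 1 and 0 of the 200 genes in the same order (backgrounds 7.24%, 4.28% and 0.00698%). The comparisons share libraries, since each breed enters 2 of them.

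Between the parents, the fitted log2 difference of Droughtmaster from Red Angus ran from -0.48 to 0.39 among the 200 genes. It was negative for 158 genes and positive for 42, with a median of -0.16. The median was -0.28 over the 3254 ranked genes and -0.01 over all 14446 features, so the 200 genes leaned in the direction of abundant genes in general. Without Droughtmaster replicate 3 the median of the 200 genes was -0.0834, with 143 genes negative. With raw library sizes it was -0.0680 (133 negative), and with upper-quartile factors -0.0605 (121 negative). The median standard error of a difference was 0.188 in the edgeR fit, which draws each gene's dispersion toward that of genes of like abundance. The pooled SD within breeds of the same genes gave a median standard error of 0.139.

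For the 200 genes the differences of the F1 from Red Angus ran from -0.30 to 0.24, with a median of -0.04 (79 genes positive, 121 negative). The median was -0.05 over all features and -0.173 over the ranked genes. The ranked genes had -0.0765 with upper-quartile factors, -0.00290 with raw library sizes and -0.112 without Droughtmaster replicate 3. The lean of the 200 genes had no stable direction. With raw library sizes the median of all features moved to 0.07 and that of the 200 genes to 0.0979 (158 positive), with upper-quartile factors the latter was 0.0557 (130 positive), and without Droughtmaster replicate 3, which is in neither group, it was 0.0235 (110 positive). Against Droughtmaster the F1 differed by -0.28 to 0.47 with a median of 0.12 (149 positive, 51 negative), and the median stayed between 0.109 and 0.177 under the 3 other scalings and without each library in turn. The ranked genes had a median of 0.125, and of 0.177 on raw library sizes, so they shared this lean. Over all features the median was -0.00761.

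A pair of genes within the list had Droughtmaster levels apart from both other groups. ENSBTAG00000018924 measured 104, 113 and 145 CPM in Red Angus (lowest, median and highest library), 95.2, 112 and 122 CPM in the F1, and 74.5, 88.3 and 91.2 CPM in Droughtmaster. Every Droughtmaster library lay below every library of the other breeds. The breed means were 120 ± 17.9, 111 ± 9.56 and 85.8 ± 6.40 CPM (SD, n = 6 each). The log2 difference of Droughtmaster from Red Angus was -0.48 ± 0.163 (SE; edgeR adjusted p = 0.107, DESeq2 adjusted p = 0.0167), and that of the F1 from Droughtmaster was 0.37 ± 0.163 (edgeR adjusted p = 0.304). Without Droughtmaster replicate 3 they were -0.39 ± 0.172 (edgeR adjusted p = 0.285) and 0.34 ± 0.172 (edgeR adjusted p = 0.474). The gene did not pass edgeR's threshold in either comparison.

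ENSBTAG00000002960 showed the same arrangement. It measured 138, 146 and 173 CPM in Red Angus, 136, 153 and 174 CPM in the F1, and 95.5, 113 and 136 CPM in Droughtmaster. The highest Droughtmaster library, replicate 4 at 135.6 CPM, fell just short of the lowest F1 library at 136.5 CPM, so the separation is narrow. The means were 149 ± 13.0, 155 ± 13.8 and 112 ± 14.8 CPM (SD, n = 6 each). The log2 difference was -0.41 ± 0.163 for Droughtmaster against Red Angus (edgeR adjusted p = 0.166, DESeq2 adjusted p = 0.0397) and 0.47 ± 0.163 for F1 against Droughtmaster (edgeR adjusted p = 0.167, DESeq2 adjusted p = 0.0135). Without Droughtmaster replicate 3 these differences were -0.32 ± 0.172 (edgeR adjusted p = 0.404) and 0.44 ± 0.173 (edgeR adjusted p = 0.306). Its SD over all 18 libraries was 0.258, near the median of the list.

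**Figure D5:**
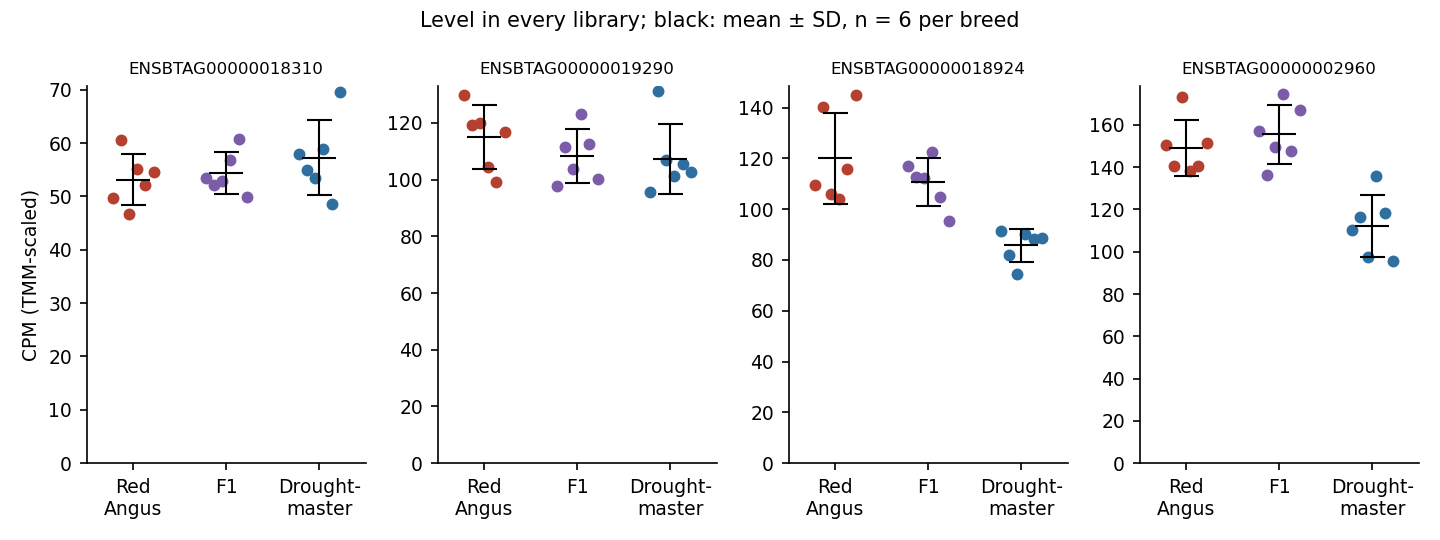
CPM (y axis, from 0) in every library by breed for the 2 least variable genes, ENSBTAG00000018310 and ENSBTAG00000019290, and for the 2 genes of the list with the widest gap between breed means, ENSBTAG00000018924 and ENSBTAG00000002960; points are libraries and black marks are means ± SD (n = 6). The breeds overlap in the first pair, while in the second pair all Droughtmaster points lie below all others, at 74.5 to 91.2 and 95.5 to 136 CPM.

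A few other genes of the list had groups that did not overlap. Counting the pair above, the counts are of few genes and are bound by the choice, so nothing is read from them about the list. Among the 3254 ranked genes, 43 lay lower in Droughtmaster than in Red Angus without overlap, and 9 higher. Another 48 lay higher in the F1 than in Droughtmaster, and 24 lower. For the F1 against Red Angus, 2 ranked genes lay lower and 1 higher. Of the 200 genes, 3 did not overlap between Droughtmaster and Red Angus, each lower in Droughtmaster (background 0.824% of all features). The third was ENSBTAG00000011811. Red Angus, F1 and Droughtmaster measured 80.4 ± 5.55, 73.2 ± 7.65 and 65.1 ± 8.99 CPM (SD, n = 6 each; log2 difference -0.30 ± 0.163, edgeR adjusted p = 0.307). Without Droughtmaster replicate 3 that difference was -0.18 ± 0.161 (edgeR adjusted p = 0.639). The gene was named after its values were seen. No gene of the list lay higher in all Droughtmaster than in all Red Angus libraries (background 0.817%). Between F1 and Droughtmaster, the pair above was higher in the F1 without overlap (2 genes, background 0.879%), and ENSBTAG00000017299 was the 1 gene lower without overlap (background 1.20%). It measured 51.2 ± 4.86 CPM in the F1 and 62.0 ± 4.98 in Droughtmaster, with 47.3 ± 12.3 in Red Angus. Its log2 difference of the F1 from Droughtmaster was -0.28 ± 0.185 (SE; edgeR adjusted p = 0.558). Between F1 and Red Angus, ENSBTAG00000003807 was lower without overlap (1 gene, background 0.0415%), at 57.7 ± 5.72 against 70.8 ± 8.69 CPM (SD, n = 6 each; edgeR adjusted p = 1.00), and 0 genes were higher (background 0.0554%).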

How the data were processed

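Leukocyte mRNA of 18 animals in 3 breed groups of 6 was analysed. The values are whole-number counts for each gene as deposited. HISAT2 2.0.5, featureCounts 1.5.0-p3, DESeq2 1.16.1 and build ARS-UCD1.2 are named, without their roles, per the submitters' processing notes. The annotation release and strandedness are not given in the sources used here. All columns matched a sample by title, and no pair of libraries looked like 1 library deposited again, since the lowest chi-square between any pair was 53.5 per degree of freedom. Features were filtered with filterByExpr by breed and scaled by TMM in edgeR 4.0.16 (R 4.3.3). All 18 libraries entered 1 quasi-likelihood fit with 3 group means (robust, two-sided). DESeq2 1.42.0 and limma 3.58.1 were alternatives. Tests and ranking were tested on simulated data. The genes, lists and rules were chosen with earlier results of these data known. Genes were named for lowest SD, highest CPM, largest breed gap, position at the limit or smallest p, at most 2 of each. The gene lists (27), marker lists (11) and promoter motifs (13) prepared could not be used without symbols or sequences. Depth was 11639000 to 24117600 counts per library. Alternatives covered scaling, filters, CPM minimum, pseudocount, measure of spread, test and each library left out. Positions of unannotated loci are as the authors deposited them.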

Additional observations from a re-analysis of the deposited data

Results flagged for a closer look

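A gap test for a single stray library (Dixon's ratio of the gap to the range, at the 95% critical value for a group of 6) was applied to 60 groups, made of the log2 CPM of 16 named genes and 4 library measures in each breed. It marked 3 groups, or 5%, and chance marks about 1 in 20. Droughtmaster replicate 2 was high for ENSBTAG00000019290 (ratio 0.643), at 131 CPM, while the breed's other libraries reached 107 CPM. F1 replicate 3 was low for ENSBTAG00000013363 (ratio 0.694), at 495.1 CPM with the next lowest at 691 CPM. F1 replicate 5 was high for ENSBTAG00000003109 (ratio 0.631), at 654 CPM, with the next highest at 498 CPM. The 3 cases concern 3 different libraries.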

How the results depend on the processing

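Of the 200 genes, 51 were kept on raw library sizes, 31 on raw sizes without Droughtmaster replicate 3, 121 and 94 with a minimum of 20 or 100 CPM (which changes the genes that can be ranked), 115 by the median absolute deviation and 116 when chosen without Droughtmaster. The count of 94 was fixed in advance, since the 106 genes under 100 CPM could not be ranked and the rest had to stay. Leaving out 1 library kept 148 to 195. The other settings kept at least 148. Their median SD was 0.476 on raw sizes and 0.246 to 0.259 without each library. The 200 genes gave 0 edgeR or limma calls in each comparison under every setting run, including each library left out (0 to 0), and DESeq2 called 2 for Droughtmaster against Red Angus and 1 for F1 against Droughtmaster. Over all features, the calls for Droughtmaster against Red Angus (376) and F1 against Droughtmaster (171) were 76 and 64 on raw sizes, 31 and 32 at an adjusted p under 0.01, and 1037 and 613 by DESeq2. The first was 236 without a filter and 56 with only the groups compared. F1 against Red Angus gave 1 by DESeq2 and 0 without each library. Leaving out 1 library gave 143 (Droughtmaster replicate 6) to 1407 (Red Angus replicate 5) for the first. Red Angus replicates 1 to 4, F1 replicates 3 and 4 and Droughtmaster replicate 3 moved it by over 1.5 times too. For F1 against Droughtmaster the range was 65 (F1 replicate 1) to 335 (Droughtmaster replicate 1), with F1 replicates 2, 3, 4 and 6 and Droughtmaster replicates 2, 4 and 6 also moving it so. The median difference of the 200 genes between the parents was -0.0680 on raw sizes, -0.0605 with upper-quartile factors and -0.171 to -0.0834 without each library. For F1 against Red Angus it reversed, to 0.0979 and 0.0557 with those scalings and 0.0235 without Droughtmaster replicate 3 (range -0.0602 to 0.0235). For F1 against Droughtmaster the range was 0.109 to 0.151. The cause of these changes was not tested. Promoter motifs were not run. No paired analysis was possible because the labels give animals no shared numbers. The limma fit, the shift by the genes' own median, the raw sizes without a library, the differences of single genes without Droughtmaster replicate 3 and the other settings of the median differences were chosen after seeing the data.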

Other observations

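The choice was limited to genes with an Ensembl identifier, but loci without one reached the same abundance. Of these unannotated loci, 33 had a mean of at least 50 CPM, with a median SD of 0.547 against 0.570 for the 3254 ranked genes. A single locus (3.03% of the 33, against 6.15% of the ranked genes) lay under the limit of 0.291. It is on chromosome 19 (39322275 to 39324345, minus strand, build ARS-UCD1.2), and its length of 2071 bases fills the interval, so it is listed as 1 uninterrupted block. Its SD was 0.261, and 114 of the ranked genes had a lower one. Red Angus, F1 and Droughtmaster measured 137 ± 19.8, 127 ± 31.4 and 127 ± 22.1 CPM (SD, n = 6 each), with single libraries from 91.6 to 186 CPM. Whether it belongs to a neighbouring annotated gene was not analysed here.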
